A study of Rattus norvegicus with 6 samples.

Results

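Cyp2e1 encodes cytochrome P450 2E1, a haem enzyme of the endoplasmic reticulum in hepatocytes. The enzyme oxidizes ethanol, acetone, acetaminophen and many other small molecules, and its reaction cycle leaks reactive oxygen species. In the liver its mRNA and protein are known to be concentrated in the pericentral hepatocytes, the cells around the central vein, where blood is lowest in oxygen and Wnt signalling through beta-catenin maintains the zone. The gene lies on chromosome 1 of the rat at chr1:205269967-205280365 on the plus strand of the GRCr8 assembly, and its annotated transcript is a protein-coding mRNA.

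Cyp2e1 was read by the array probe A_44_P409232, which is printed on 10 spots per array. It is 1 of 38 genes that could be named on the array, and its probe was found by name. The study transplanted livers between male Lewis rats and took the grafts 12 h afterwards. In the BDDLT group the grafts came from brain-dead (BD) donors, whose livers were procured hours after brain death had been induced by raising the pressure inside the skull. Donors of the control group had a sham operation, in which the skull was drilled and the abdomen opened, and were not brain-dead. All grafts had been flushed with UW solution, a cold storage fluid, and were joined to the recipient's vessels with cuffs, the hepatic artery being left unconnected. The age of the rats was not given in the sources used here. Each group has 3 liver samples, each on an array of its own. Both groups are transplanted, and no untransplanted liver is among these arrays. The labels number the livers of a group but do not say that they came from separate animals, and the p values measure the spread between these samples.

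Cyp2e1 RNA was detected in every liver, at a level far above the background. All 10 spots were well above background and 0 were saturated on each of the 6 arrays. After removal of flagged outlier spots, the mean processed signal of Cyp2e1, a spot's intensity after background subtraction, was 9334, 21431 and 34165 in BDDLT replicates 1, 2 and 3. In control replicates 1, 2 and 3 it was 28208, 34147 and 42425. The median local background around these spots was between 14.8 and 20.8 on any array, and the brightest of 153 negative control spots had a signal of 95.2. Cyp2e1 was the single gene named on the array among 10 hepatocyte markers, so the labelled tissue could not be checked against the others.

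To compare the livers, the log2 signal of each array was expressed relative to the 75th percentile of that array. On this scale the Cyp2e1 level was 5.27, 6.41 and 6.97 in BDDLT replicates 1, 2 and 3. The level was 7.02, 7.24 and 7.37 in control replicates 1, 2 and 3. On this scale every BDDLT liver lay below every control liver, BDDLT replicate 1 by far the most and BDDLT replicate 3 only just. Against the mean of the control group on the log2 scale, the Cyp2e1 level was 26.1%, 57.5% and 84.6% in BDDLT replicates 1, 2 and 3. The control livers themselves ranged from 87.9% to 112% of that mean.

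The repeat spots of an array show the error of a single reading, not that of labelling, hybridization or animals. Of 60 Cyp2e1 spots, 52 were kept and 8 were flagged as outliers, 4 of them on the array of BDDLT replicate 1. The pooled SD of the kept spots within an array was 0.076 on the log2 scale. The gap between BDDLT replicates 1 and 2 was 1.14 and that between BDDLT replicates 2 and 3 was 0.56, and in both cases the ranges of the spots did not overlap. The gap between BDDLT replicate 3 and control replicate 1, the neighbours at the border of the groups, was 0.05, and their spots overlapped. Neighbouring control livers, with gaps of 0.21 and 0.13, also had overlapping spots.

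**Figure D1:**
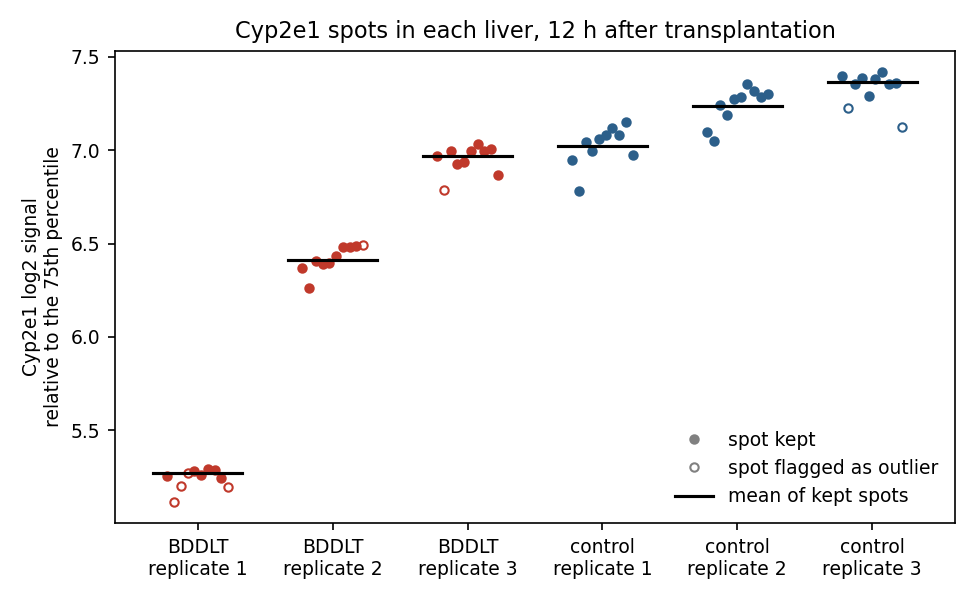
Log2 signal of each Cyp2e1 spot relative to the 75th percentile of its array (vertical axis) in the 3 BDDLT and 3 control livers, with 10 spots per array, flagged outlier spots as open circles, and the mean of the kept spots as a line. The line stands at 5.27 in BDDLT replicate 1 and between 6.41 and 7.37 in the other livers, and the spots of BDDLT replicate 3 overlap those of control replicate 1.

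The same 10 positions of the array hold the Cyp2e1 spots in every liver, so the groups could be set against each other position by position, although all positions share the same 6 hybridizations. With flagged spots included, the log2 difference of BDDLT minus control was between -1.03 and -0.95 over the 10 positions. With flagged spots kept, the mean level of BDDLT replicate 1 was 5.24 in place of 5.27.

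The question of the comparison is whether the donor's brain death goes with another level of Cyp2e1 RNA in the graft. The Cyp2e1 level was 6.22 ± 0.87 (SD, n = 3) in BDDLT. In control it was 7.21 ± 0.17 (SD, n = 3). The log2 difference was -0.99 with a standard error of 0.43, which is a 1.99-fold lower level in the BDDLT group. Its 95% interval ran from -2.05 to 0.06, that is, from a 4.13-fold lower level to a slightly higher one. With limma fitted over all 27259 detected probes, the p value of Cyp2e1 was 0.0606 and its Benjamini-Hochberg adjusted p was 0.314. Cyp2e1 thus passed neither the fold change limit of 2, which it missed narrowly, nor the adjusted p limit of 0.05. Both limits together were passed by 0.814% of the tested probes, or 222. With the replicate number as a block limma called 0 probes, and 642 passed the fold limit with an unadjusted p under 0.05. It also called 0 when BDDLT replicate 1, BDDLT replicate 2 and control replicate 2 were left out in turn, with 550, 553 and 538 past the unadjusted limits. In the fit with no block Cyp2e1 also missed an unadjusted p under 0.05, which 17.5% of the tested probes had. Limma's unadjusted p of Cyp2e1 was 0.0319 with the replicate number as a block and 0.0405 with the scan as a block. The adjusted p was then 0.188 and 0.189, so neither fit gave a call. The two-sided exact permutation test over the 6 arrays gave p = 0.10, the smallest value that 3 livers against 3 can give. On the scale of the 75th percentile all 3 BDDLT values lay below all 3 control values, as was the case in 12.5% of the tested probes. Under 3 of 6 scalings the groups overlapped, and the exact permutation p was then between 0.20 and 0.30. In bulk tissue, a loss of Cyp2e1-expressing cells and less Cyp2e1 RNA per cell cannot be told apart.

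The rank of the difference by size depended most on BDDLT replicate 1. The log2 difference of Cyp2e1 lay below the median of all tested probes, which was -0.03. A lower value was found in 391 of the 27259 probes, or 1.43%, and 851 probes, or 3.12%, lay farther from 0 in either direction. Without BDDLT replicate 1 these shares were 5.76% and 12.5%. Without control replicate 3 they were 1.89% and 4.75%. With any other array left out, the first was between 1.01% and 1.98% and the second between 2.09% and 3.67%. By its p value with all arrays, 5255 probes, or 19.3%, ranked before Cyp2e1.

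The BDDLT livers differed from each other in Cyp2e1 far more than the control livers did. The SD of the log2 level was 0.87 in the BDDLT group, against a median of 0.16 over the tested probes in the same group. A smaller SD was found in 96.0% of the tested probes. In the control group the SD of Cyp2e1 was 0.17, close to the median of 0.19 there, and 46.4% of the probes had a smaller one. The SD in the BDDLT group was 4.99 times that in the control group, whereas the median of this ratio over the tested probes was 0.90. The ratio was smaller in 96.3% of the tested probes. Without BDDLT replicate 1 the SD of the BDDLT group was 0.39 and the ratio 2.27. With no scaling between arrays the ratio was 3.22, and under the other scalings it was between 4.82 and 7.13. With 3 livers in each group, this contrast of spreads is a description and was not tested.

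Each array was also left out in turn. Without BDDLT replicate 1 the log2 difference of Cyp2e1 was -0.52 (SE 0.22), and limma's adjusted p was 0.420. Without BDDLT replicate 3, the graft closest to the controls, it was -1.37 (SE 0.36), and limma's adjusted p was 0.156. With any other array left out it stayed between -1.09 and -0.91. Cyp2e1 did not pass both limits in any of these 6 fits.

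The general brightness of the array of BDDLT replicate 1 was compared with that of the others. The 75th percentile of the signal was 242 on this array and between 217 and 273 on the others. On this array 26513 probes were well above background, within the range of 25369 to 30940 over all arrays. The mean level of 9 reference genes, among them Actb, B2m and Rpl13a, was 6.31 in BDDLT replicate 1 on the scale of the 75th percentile. In the other 5 livers it was between 6.14 and 6.29. Single members went both ways in this liver. Hprt1 at 3.98 and Pgk1 at 6.65 lay below all 3 controls, and Actb at 4.74, Sdha at 6.74 and Gusb at 2.24 lay above all 3. For Hprt1, Pgk1 and Actb the same held in every BDDLT liver. Over all tested probes, 12.5% had all 3 BDDLT values below all 3 control values. The share with all BDDLT values above is not given here, so this is no trait of the reference genes.

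Replicates 1 and 2 of both groups were scanned at the same time, and replicate 3 of both groups in a separate scan. In the first scan the mean Cyp2e1 level was 5.84 in 2 BDDLT livers and 7.13 in 2 control livers, a log2 difference of -1.29. With these 4 arrays alone, limma gave an adjusted p of 0.206. In the second scan the log2 difference between the single BDDLT liver and the single control liver was -0.40, which allows no test. The difference had the same direction in both scans, and the size was larger in the first. Since every BDDLT liver lay below every control liver on this scale, the direction within each scan was fixed beforehand. With the scan as a block in limma, the adjusted p of Cyp2e1 was 0.189.

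The study's methods describe the livers as pairs, and both groups carry the numbers 1 to 3. Between livers of the same number the log2 difference of Cyp2e1, BDDLT minus control, was -1.75 for number 1, -0.83 for number 2 and -0.40 for number 3. The BDDLT liver of each number thus had the lower Cyp2e1 level, by 3.37-fold, 1.77-fold and 1.32-fold. On this scale every BDDLT liver lay below every control liver, so any matching of the livers would give this direction. The shared direction therefore adds nothing to that order. With the replicate number as a block, limma gave a standard error of 0.30 for Cyp2e1, a p value of 0.0319 and an adjusted p of 0.188, so the gene did not pass the limit here either.

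Whether the groups overlapped in Cyp2e1 depended on how the arrays were scaled. The log2 difference of Cyp2e1 was -0.99 after quantile normalization, -0.96 after scaling by the median and -1.02 after scaling by 9 reference genes. It was -0.98 with normexp background correction of the median spot signal followed by quantile normalization, and -0.86 with no scaling between arrays. Without scaling the median log2 difference over all tested probes stood at 0.11, and that of Cyp2e1 relative to this median was -0.97. Subtracting 1 constant per array cannot move this relative value. BDDLT replicate 3 stayed below every control liver with the 75th percentile, the quantiles and the median. With the reference genes, with normexp and with no scaling it lay above control replicate 1, with log2 gaps of control minus BDDLT of -0.01, -0.04 and -0.28. With no scaling it also lay just above control replicate 2, and thus above 2 of the 3 controls. The two-sided exact permutation p was 0.20 with the reference genes and with normexp, and 0.30 with no scaling. That test takes no account of the replicate numbers. Between livers of the same number, the BDDLT liver lay below the control under each of these 6 scalings. Where the groups did not overlap, this follows from their order alone. BDDLT replicates 1 and 2 stayed below all control livers under each of these 6 scalings, with log2 differences from the control mean of -2.03 to -1.83 for replicate 1 and -0.87 to -0.68 for replicate 2.

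**Figure D2:**
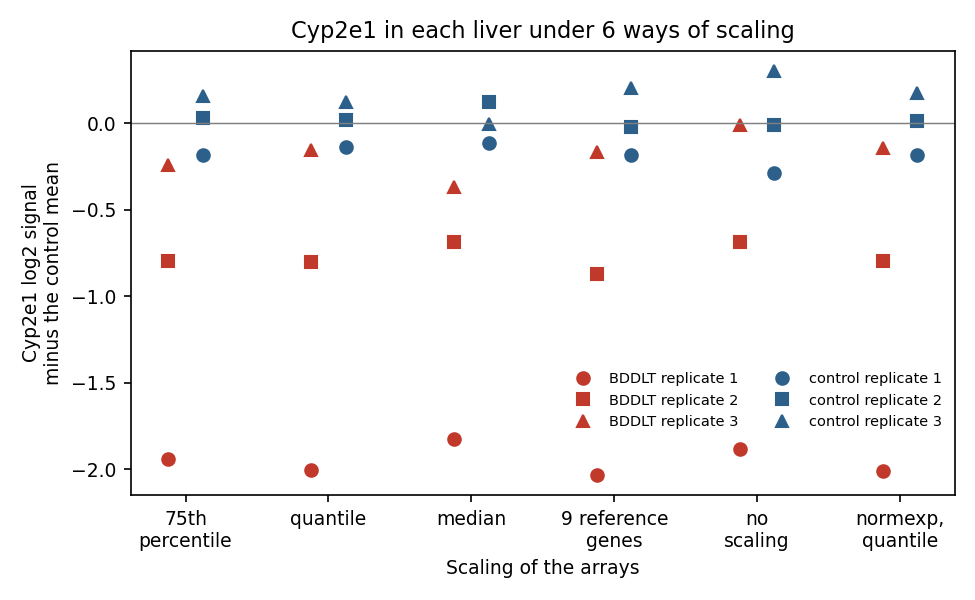
Log2 signal of Cyp2e1 in each liver minus the mean of the 3 control livers (vertical axis) under 6 ways of scaling the arrays (horizontal axis), with 1 point per liver. BDDLT replicate 1 stands between -2.03 and -1.83 under each scaling, whereas BDDLT replicate 3 stands between -0.37 and -0.01 and lies above control replicate 1 under 3 of the 6 and above control replicate 2 under 1.

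Other genes of the same pathway could not be set beside Cyp2e1. Lists of pericentral and periportal hepatocyte genes, of cytochromes P450 and their partners, of enzymes of ethanol and ketone oxidation, of regulators of Cyp2e1 and of markers of liver cell types held 136 genes. The files name a probe for 1 of these, Cyp2e1 itself. The zone next to the portal vein, the infiltrating cells and the upstream regulators were therefore not analysed here, and their part in the Cyp2e1 values was not tested. Of the list of reference genes, 9 of 34 were named and detected. In limma 0 of these 9 passed both limits, against 0.814% of all tested probes, and 1 had an unadjusted p under 0.05, against 17.5%. Their median log2 difference was 0.06, with members on both sides, from -0.45 for Hprt1 to 0.50 for Actb, both named after their values were seen.

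Cyp2e1 was then set against the other 31 named and detected genes by Pearson's r of the log2 levels over the 6 arrays. These correlations are descriptions, since the points share the arrays and their scaling and 1 liver lies far from the rest. The genes most like Cyp2e1 were Hsp90ab1, a cytosolic chaperone, with r of 0.95 and Cdh2, the adhesion protein N-cadherin, with r of 0.94. They were followed by Pop7, a subunit of the RNase P and MRP complexes, with r of 0.93, and Magoh, a core protein of the exon junction complex, with r of 0.88. Under scaling by the median, r was 0.67 for Hsp90ab1, 0.82 for Cdh2, 0.29 for Pop7 and 0.32 for Magoh. The likeness thus depended on the scaling, most of all that of Pop7 and Magoh. After quantile normalization r was between 0.95 and 0.98 for all 4, and with the reference genes between 0.96 and 0.97. With no scaling it was 0.88 for Hsp90ab1, 0.99 for Cdh2, 0.73 for Pop7 and 0.85 for Magoh.

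The differences of these genes between the livers were smaller than those of Cyp2e1. Between the lowest and the highest liver, the log2 level of Cyp2e1 differed by 2.10. That of Cdh2 differed by 0.77, that of Hsp90ab1 by 0.50, that of Magoh by 0.27 and that of Pop7 by 0.25.

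The log2 level of Cdh2 was 2.60, 2.98 and 3.10 in BDDLT replicates 1, 2 and 3 and 3.37, 3.34 and 3.24 in control replicates 1, 2 and 3. As for Cyp2e1, BDDLT replicate 1 was lowest and the groups did not overlap on this scale. The log2 difference of Cdh2 was -0.42 (SE 0.15), and limma's adjusted p was 0.228.

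The log2 level of Hsp90ab1 was 5.09, 5.42 and 5.53 in the BDDLT livers and 5.53, 5.59 and 5.48 in the control livers, in the order of the replicates. Here BDDLT replicate 1 was again lowest, while BDDLT replicate 3 lay among the controls. Its log2 difference was -0.19 (SE 0.14), and limma's adjusted p was 0.580.

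The genes least like Cyp2e1 were Ndfip2, an adaptor of Nedd4-family ubiquitin ligases, with r of -0.79 and Odf2l, a relative of a centrosomal protein, with r of -0.76. Under the other scalings examined, by quantiles, reference genes, the median or none, r was between -0.89 and -0.63 for Ndfip2 and between -0.81 and -0.50 for Odf2l, which was at -0.50 with no scaling. The log2 level of Ndfip2 was 4.64, 4.38 and 3.99 in BDDLT replicates 1, 2 and 3 and between 4.18 and 4.32 in the control livers. BDDLT replicate 1, lowest for Cyp2e1, was thus highest for Ndfip2, and BDDLT replicate 3 was lowest. The means of the groups differed by 0.07 on the log2 scale for Ndfip2 (SE 0.18), and limma's adjusted p was 0.916. For Odf2l the log2 difference was 0.28 (SE 0.16), and limma's adjusted p was 0.467.

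**Figure D3:**
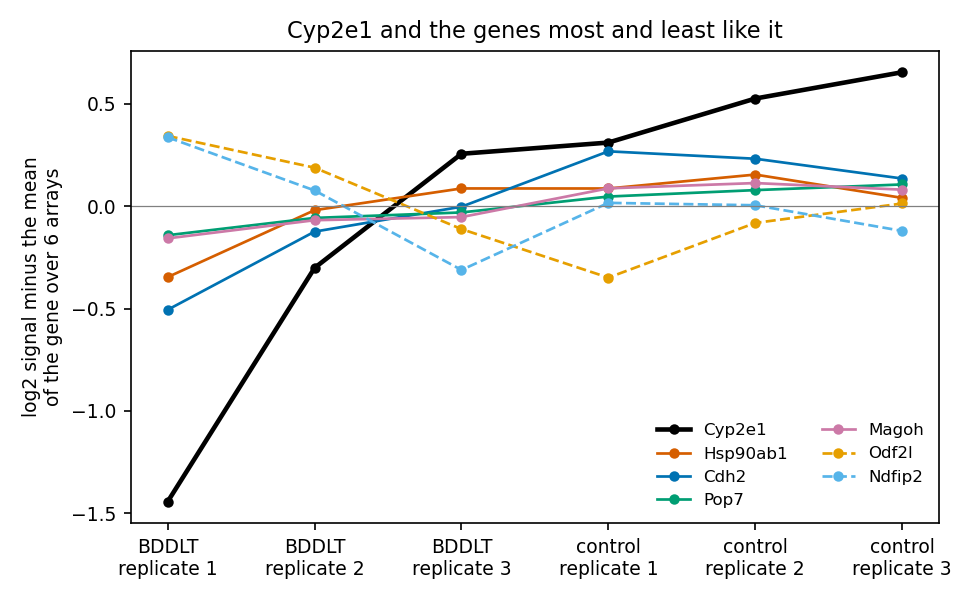
Log2 signal minus the mean of each gene over the 6 arrays (vertical axis) for Cyp2e1, the 4 named genes with the highest r with it (solid lines) and the 2 with the lowest (dashed lines), in each liver. Cyp2e1 spans 2.10 between the livers, whereas the genes most like it span between 0.25 and 0.77.

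Among 26810 detected probes that carry only a manufacturer's number, 603 (2.25%) had an r of at least 0.9 with Cyp2e1 and 640 (2.39%) had an r of at most -0.9. The probe most like Cyp2e1 was ASRNV20013640, with r of 0.998. Its log2 level was -2.46, -1.37 and -0.79 in BDDLT replicates 1, 2 and 3 and -0.86, -0.61 and -0.56 in control replicates 1, 2 and 3. This probe spanned 1.91 between the livers, nearly as much as Cyp2e1, and BDDLT replicate 3 lay above control replicate 1. Its log2 difference was -0.87 (SE 0.42), and limma's adjusted p was 0.370. After quantile normalization its r was 0.999. On the array of BDDLT replicate 1 its signal was 43.9, where the brightest negative control spot had 45.9. The probe next in r, ASRNV20027220, was near the floor, with signals between 6.64 and 13.0, and was not well above background in BDDLT replicates 1 and 2. Its r of 0.997, which was 0.69 after quantile normalization, is therefore not read as likeness. The files do not say which transcripts these probes read.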

How the data were processed

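RNA of 3 livers of the BDDLT group and 3 of the control group was labelled with 1 dye and hybridized to the Arraystar rat lncRNA array. The authors deposited for each array the output of Agilent Feature Extraction 11.0.1.1, whose processed signal column gives background-subtracted intensity per spot, not yet normalized between arrays. The authors also deposited a table of normalized log2 values, which has 0 rows for the Cyp2e1 probe and served only for counts over all probes. The method behind that table is not given in the sources used here.

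Spots flagged as non-uniform or population outliers were dropped, log2 processed signals were averaged over the spots of each probe, and the array's own 75th percentile over non-control probes was subtracted. An array detected a probe if no fewer of its kept spots were well above background than were not, and 27259 of 38321 probes, detected on 3 or more arrays, were tested. The fit used limma 3.58.1 (lmFit, eBayes) under R 4.3.3, with Benjamini-Hochberg adjustment over all tested probes and no covariate. The limits, a 2-fold difference and an adjusted p under 0.05, follow the study's methods. The steps were tested on simulated data.

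Arrays have no sequencing depth, and their number limits the precision. Accessions were matched without versions to RefSeq genes of the GRCr8 assembly, which named 39 probes of 38 genes, 32 of them detected.

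Pairing was checked by the deviations from the group means over 27192 probes. They had a correlation of 0.139, 0.297 and 0.531 for the pairs of numbers 1, 2 and 3, so the replicate block is given beside the fit without it. Mates in the first scan with other numbers reached 0.200 and 0.291, above the 0.139 of number 1. Livers of different scans had correlations between -0.440 and -0.252. The pair of number 3 is also the whole of the second scan, so pairing and scan cannot be told apart there.

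The gene and the lists were chosen with earlier results of these data known. The genes to name were the 4 with the highest and the 2 with the lowest r with Cyp2e1 among named genes, and the 2 number-only probes with the highest r. Scan time from the file headers stood in for the slide. The study's circRNA arrays were not analysed here. Alternatives were other scalings, background corrections, spot summaries, detection filters, blocks, variance models, the methods' t-test, and each array left out.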

Additional observations from a re-analysis of the deposited data

How the results depend on the processing

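Of 22 other settings, 7 cannot move the log2 difference of Cyp2e1, since they alter only the filter, the block, the variance model or the test. In the other 15 it was negative, and in the 14 of these with a test it was past both limits in 0. Its unadjusted p was under 0.05 in 6 of the 22, and 2 of the 6, the first scan alone and the fit without BDDLT replicate 3, also had at least a 2-fold difference. These unadjusted values are not calls. With all arrays kept and limma or the methods' t-test it was between -1.02 and -0.86. Without 1 array it was between -1.37 and -0.52, with limma's adjusted p from 0.156 to 0.587. The methods' t-test gave Cyp2e1 an adjusted p of 0.445 (Benjamini-Hochberg, the same values and livers), and its unadjusted p was not past the limit either. With the replicate number as a block, the paired fit, the call for Cyp2e1 was as before.

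The count of probes past both limits, against which Cyp2e1 is read, was 222. It was between 168 and 308 with quantile normalization (249), no scaling (242), reference genes (168), detection on all 6 arrays (258), trend and robust moderation (308) and the deposited values (252). It was 143 with scaling by the median, 118 with normexp on the median spot signal and quantile normalization, which changes several choices together, 22 with no detection filter, and 355 with the scan as a block. It was 504 by the methods' t-test unadjusted and 73 after Benjamini-Hochberg adjustment. With the replicate number as a block limma called 0 probes, and with the first scan alone 0, where 642 and 920 passed the fold limit together with an unadjusted p under 0.05, and the methods' t-test was not run in these designs. Without 1 array limma called between 0 and 96. Leaving out BDDLT replicate 1, BDDLT replicate 2 and control replicate 2 in turn gave 0 each time, with 550, 553 and 538 past the unadjusted limits. The number was 61 without BDDLT replicate 3, 50 without control replicate 1 and 96 without control replicate 3. Fewer arrays enter these fits by construction, and elsewhere the cause was not tested. The second scan alone gave no count, and the deposited table gave no Cyp2e1 value. With 1 probe of Cyp2e1, the reading could not be checked against a second part of the transcript.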
